A study of Mus musculus with 6 samples.

Results

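Small leucine-rich and matrix proteoglycans are secreted proteins that carry sulfated sugar chains or descend from proteins that do, and they sit on the collagen fibrils and in the basement membranes of the heart. The group was taken as 10 genes, which are Dcn, Bgn, Aspn, Lum, Fmod, Prelp, Ogn, Podn, Vcan and Hspg2, and every array probe that carried 1 of these gene names and was not a control was a member. This rule found 13 probes among 55681 on the array, and 10 genes among 23688 gene names. Of these, 11 probes of 9 genes were tested because all 3 arrays of sham, of tail-suspension or of both gave a signal well above background, which Prelp did not reach.

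RNA came from the cardiac muscle of male C57BL/6 mice, 3 sham and 3 after 28 days of tail-suspension, in which a mouse is held by its tail so that the hindlimbs are unloaded, as a model of weightlessness. Sham mice were not suspended, and both groups were otherwise kept alike, with no other treatment named for either. The labels give the mice as 10 weeks old when suspension began and as 11 weeks old in the sample record, which cannot both hold after 28 days. Each RNA was labelled with Cy3 and hybridised alone, so each array is 1 RNA sample. It is taken as 1 mouse heart, since no pooling of hearts is named, and the comparison asks which genes differ after simulated weightlessness.

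In this family, the small members fold into a curved solenoid of leucine-rich repeats that binds collagen and sets how thick fibrils grow and how they are spaced. Class I members (Dcn, Bgn, Aspn) bind collagen and growth factors of the TGF-beta family, class II members (Lum, Fmod, Prelp) share collagen sites and are modified by keratan sulfate or tyrosine sulfation, Ogn belongs to class III and Podn to class V. Vcan and Hspg2 are unrelated in fold and far larger. Versican binds hyaluronan in loose matrix, and perlecan, the product of Hspg2, carries heparan sulfate in basement membranes such as those around cardiomyocytes and capillaries.

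Cardiomyocyte genes, among them Myh6 and Tnnt2, were well above background on all 6 arrays for 8 of 8 markers, as the labelled tissue requires. The share of probes well above background ran from 50.9% to 53.4% over the arrays, no spot was saturated, and all arrays lay on 1 slide. Its row 1 held the sham arrays with tail-suspension array 1, and row 2 held tail-suspension arrays 2 and 3. Levels are given as log2 of the processed intensity relative to the 75th percentile of its array (302 to 376 intensity units), so that 0 is the brightness that 3 in 4 spots do not exceed, and levels of different probes are not set against each other. In whole heart, fewer cells of a type and less RNA per cell cannot be told apart. Differences are tail-suspension minus sham, tested with limma and adjusted by Benjamini-Hochberg over all 28002 tested probes.

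Ogn was the member that moved most clearly, and it fell. Of the 9 tested genes, 1 was lower and 0 were higher past an adjusted p of 0.05 in limma by their brightest probe, whereas 21.5% of all 14947 tested genes passed in either direction, 10.5% higher and 11% lower. At an unadjusted p under 0.05 in limma it was 5 of 9 genes and 6 of 11 probes, where 38.1% of all tested probes passed. The groups did not overlap for 4 of 9 members, 44.4%, against 47.2% of all tested genes. Dcn was the 1 tested member with all suspended hearts above sham (21.9% of all tested genes), and Lum, Ogn and Hspg2 were the 3 with all below (25.3%). The median difference was -0.37 over the 9 members and -0.02 over all tested genes, with 7 members below 0 and 2 above. By probe, 2 of 11 passed, both lower, against 20.4% of all tested probes in either direction and 9.58% lower.

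**Figure D1:**
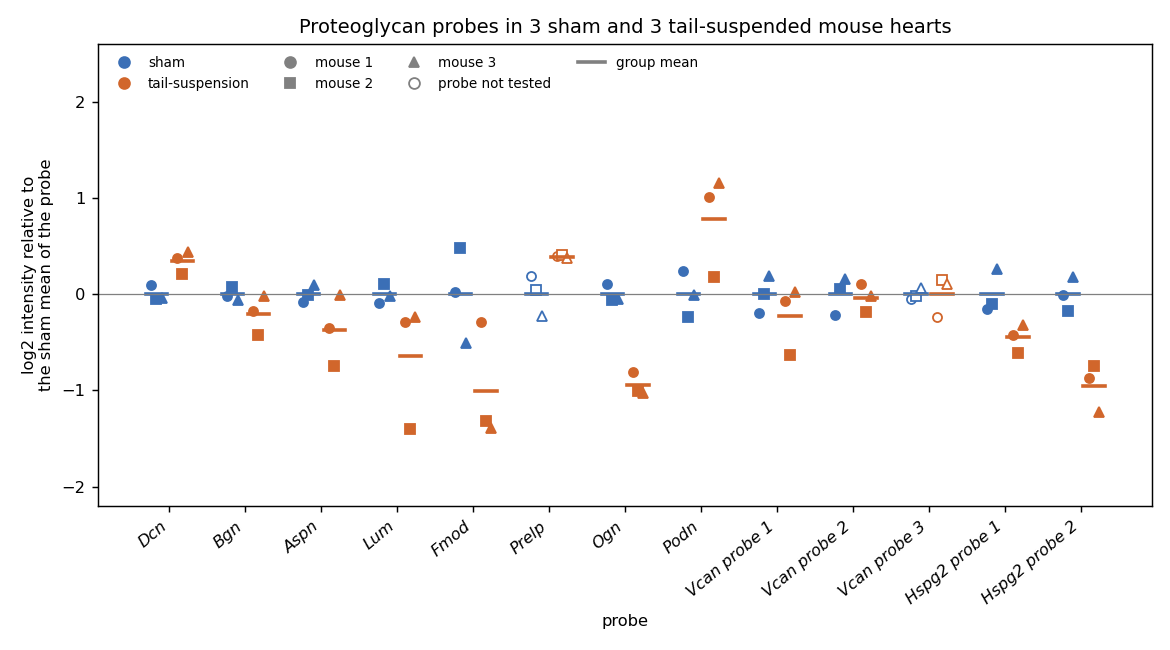
Each point is 1 array, drawn as its log2 intensity relative to the sham mean of the same probe, for the 13 probes of the 10 proteoglycan genes, with bars at group means. All 3 tail-suspension arrays lay below the sham arrays for Ogn, Lum and both Hspg2 probes. They lay above the sham arrays for Dcn and for Prelp, which was too dim to be tested. For Lum, 1 tail-suspension array lay far under the others.

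Sequences are shown for the genes on which the results turn. The first pair are the array probes of Dcn and the upstream probe of Hspg2, which show the stretch of transcript that was measured. They are given as the scanner files hold them, in lower case throughout, with no base marked. The Dcn probe lies on the plus strand of mm9 at chr10:96980233-96980292, and the Hspg2 probe on the plus strand at chr4:137125445-137125504.
Dcn probe: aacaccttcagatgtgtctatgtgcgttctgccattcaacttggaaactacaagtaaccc
Hspg2 upstream probe: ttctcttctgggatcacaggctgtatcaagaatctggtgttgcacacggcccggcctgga

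The next set are the 250 bases before the start of Ogn, of its cluster neighbour Ecm2 and of Hspg2, shown because a probe of each of these genes fell. They come from RefSeq on build GRCm38.p6, where Ogn is on the plus strand at chr13:49607765-49608014, Ecm2 on the plus strand at chr13:49504560-49504809 and Hspg2 on the plus strand at chr4:137468553-137468802. Capitals mark a TATA box, which reads TATAAA, or a GC box, which reads GGGCGG, each searched on both strands. An E-box, read as CACGTG, and a CCAAT box, named by its letters, were searched in the same way.
Ogn promoter: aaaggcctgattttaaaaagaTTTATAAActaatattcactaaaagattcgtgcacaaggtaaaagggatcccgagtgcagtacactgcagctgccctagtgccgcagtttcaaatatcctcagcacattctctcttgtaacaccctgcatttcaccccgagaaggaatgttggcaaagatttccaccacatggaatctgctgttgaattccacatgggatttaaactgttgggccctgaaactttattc
Ecm2 promoter: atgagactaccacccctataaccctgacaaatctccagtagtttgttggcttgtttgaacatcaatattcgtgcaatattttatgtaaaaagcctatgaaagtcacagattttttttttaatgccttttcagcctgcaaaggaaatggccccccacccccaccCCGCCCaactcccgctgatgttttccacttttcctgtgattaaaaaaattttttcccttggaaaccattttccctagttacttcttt
Hspg2 promoter: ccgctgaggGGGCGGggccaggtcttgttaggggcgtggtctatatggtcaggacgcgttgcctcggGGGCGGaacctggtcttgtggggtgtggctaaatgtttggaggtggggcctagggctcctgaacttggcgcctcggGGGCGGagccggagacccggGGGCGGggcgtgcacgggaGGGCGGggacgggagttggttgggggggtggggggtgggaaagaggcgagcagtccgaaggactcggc

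The Ogn stretch held TATAAA at 2 overlapping places, 1 on each strand, which run together into a palindrome. They began 229 and 227 bases before the start, at the far end of the stretch, which held none of the other motifs. TATAAA was in 12.4% of all 32851 RefSeq mouse promoters of that length. The Hspg2 stretch held 5 GC boxes and was 70% G or C, and the Ecm2 stretch held 1 GC box and was 40% G or C, as against 42% for Ogn. A GC box was in 32.7% of all promoters, CCAAT in 33.8% and CACGTG in 6.02%. None of the letters searched was common to Ogn and Ecm2. These matches describe the letters and are no evidence of binding.

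Among the class I genes, Dcn was higher after tail-suspension without passing the threshold, and Bgn and Aspn were not separated from sham. Decorin binds type I collagen and restrains the sideways growth of fibrils. The Dcn probe gave intensities of 73720, 65769 and 62504 in sham and of 94554, 92986 and 108692 in tail-suspended mouse hearts. Relative to the 75th percentile these were log2 levels of 7.84, 7.68 and 7.70 in sham and 8.12, 7.95 and 8.18 after tail-suspension. All 3 suspended hearts lay above all 3 sham hearts. The means were 7.74 ± 0.09 and 8.08 ± 0.12 (SD, n = 3 each), a difference of 0.34 (SE 0.10, 95% interval 0.10 to 0.58), or 1.27-fold, with an adjusted p of 0.0548 in limma. The adjusted p ran from 0.0213 to 0.238 over the alternatives, and it was 0.0406 without tail-suspension array 2.

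Biglycan, the closest relative of decorin, also acts as a signal to Toll-like receptors when set free from the matrix. The Bgn probe (mm9, plus strand, chrX:70738554-70738613) read 0.56, 0.65 and 0.52 in sham and 0.40, 0.15 and 0.56 after tail-suspension. Tail-suspension array 3 fell within the sham range and the groups overlapped. The difference was -0.21 (SE 0.12, 95% interval -0.50 to 0.08, adjusted p = 0.258 in limma), which leaves room for a fall of that interval's size and for almost no change. Asporin carries a run of aspartate residues and binds collagen without a sugar chain. Its probe (mm9, plus strand, chr13:49662479-49662538) read -0.88, -0.81 and -0.70 in sham and -1.14, -1.54 and -0.80 after tail-suspension. The groups overlapped through tail-suspension array 3, and the difference of -0.37 (SE 0.19, 95% interval -0.81 to 0.08) did not pass (adjusted p = 0.199, limma).

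Of the class II genes, Lum and Fmod had lower means after tail-suspension, and neither passed. Lumican spaces collagen fibrils and gives the cornea its clarity, and it is made by fibroblasts in the heart. The Lum probe (mm9, plus strand, chr10:97035210-97035269) read 3.14, 3.34 and 3.21 in sham and 2.94, 1.84 and 2.99 after tail-suspension. All suspended hearts lay below sham, but tail-suspension array 2 lay more than 1 log2 unit under the other two. The SD was 0.10 in sham and 0.65 after tail-suspension, and the difference of -0.64 (SE 0.31, 95% interval -1.37 to 0.09) had an adjusted p of 0.173 in limma. Without tail-suspension array 2 it was -0.26 with an adjusted p of 0.119, and over the alternatives the adjusted p ran from 0.119 to 0.724.

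Fibromodulin binds the same collagen site as lumican and steers collagen cross-linking. Its probe (mm9, plus strand, chr1:135943998-135944057) was dim, with intensities of 28.9, 39.4 and 18.7 in sham and 24.6, 13.3 and 12.7 after tail-suspension. It was well above background on 3 of 3 sham arrays and on 1 of 3 tail-suspension arrays, so arrays 2 and 3 of tail-suspension give only a bound. On the log2 scale the values were -3.48, -3.02 and -4.01 in sham and -3.79, -4.82 and -4.89 after tail-suspension, and the groups overlapped through tail-suspension array 1. The measured difference was -1.001 (SE 0.36, 95% interval -1.86 to -0.14, adjusted p = 0.0933 in limma). It was -1.36 (adjusted p = 0.0416) without tail-suspension array 1 and -0.49 (adjusted p = 0.0223) under another background correction (limma). The adjusted p ran from 0.0223 to 0.672 over all alternatives. Without tail-suspension array 1, every suspended array left gives only a bound, so -1.36 is no measured size and its p sets sham against background. The probe entered the test through its sham arrays alone. Prelp, which links basement membranes to the connective tissue beneath, was near the limit of the array. Its probe (mm9, minus strand, chr1:135806855-135806914) gave intensities of 14.7, 13.3 and 10.3 in sham and 18.1, 20.1 and 19.5 after tail-suspension. The suspended hearts all read higher, but the probe was well above background on 0 sham arrays and 1 tail-suspension array, and no fold or test is given.

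Ogn, the class III gene, encodes osteoglycin, also called mimecan, a small leucine-rich protein that is abundant in heart and regulates collagen fibrils. Its probe (mm9, plus strand, chr13:49719549-49719608) gave intensities of 10678, 9432 and 8955 in sham and of 5991, 5761 and 5683 in tail-suspended mouse hearts. As log2 levels these were 5.05, 4.88 and 4.89 in sham and 4.14, 3.94 and 3.92 after tail-suspension. Every suspended heart lay below every sham heart, and the gap between the groups was several times the spread within either. The means were 4.94 ± 0.09 and 3.997 ± 0.12 (SD, n = 3 each), so that Ogn fell by 0.94 (SE 0.10, 95% interval -1.19 to -0.70) on the log2 scale, or 1.92-fold, with an adjusted p of 0.00365 in limma. An exact permutation test of 3 arrays against 3 gave a two-sided p of 0.1, the smallest it can give. Within row 1 of the slide, where 1 suspended and 3 sham hearts lay, the difference was -0.81, and with the row as a block the adjusted p was 0.0557. The adjusted p ran from 0.000754 to 0.0557 over the alternatives.

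Podn, the class V gene, encodes podocan, which restrains the growth of smooth muscle cells. Its probe (mm9, minus strand, chr4:107687484-107687543) read 1.12, 0.65 and 0.88 in sham and 1.90, 1.07 and 2.04 after tail-suspension. Tail-suspension arrays 1 and 3 lay above all sham arrays, and array 2 fell just under the highest sham array. The means were 0.88 ± 0.24 and 1.67 ± 0.53 (SD, n = 3 each). The difference of 0.78 (SE 0.27, 95% interval 0.14 to 1.42), or 1.72-fold, did not pass (adjusted p = 0.0823, limma). Without tail-suspension array 2 it was 1.08 with an adjusted p of 0.0126, and over the alternatives the adjusted p ran from 0.0126 to 0.223.

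**Figure D2:**
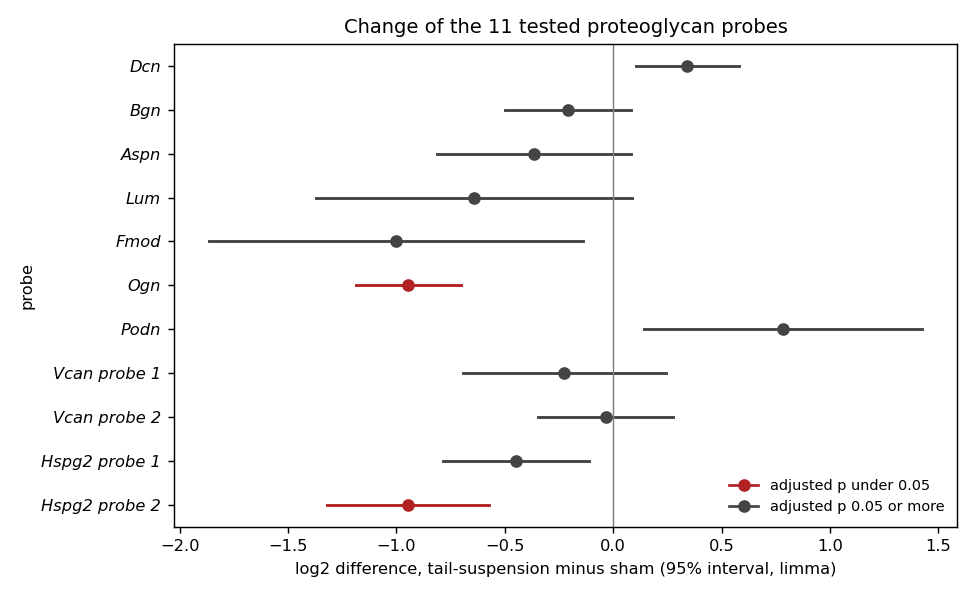
Points are log2 differences of tail-suspension minus sham and lines their 95% intervals from limma for the 11 tested probes, with probes past an adjusted p of 0.05 in red. Ogn at -0.94 and the upstream Hspg2 probe (Hspg2 probe 2) at -0.95 passed, whereas Dcn at 0.34 and Podn at 0.78 lay above 0 without passing.

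Of the large proteoglycans, Hspg2 read lower at both of its probes, 1 of which passed, and Vcan passed at none. Both Hspg2 probes lie in 1 stretch of the gene, with starts 947 bases apart on the chromosome and 947 bases apart in the transcript, so no intron falls between them. The upstream probe, printed above, read 0.03, -0.14 and 0.22 in sham and -0.84, -0.72 and -1.19 after tail-suspension. All suspended hearts lay below all sham hearts. The upstream probe fell by 0.95 (SE 0.16, 95% interval -1.32 to -0.57), or 1.93-fold, from a mean of 0.03 ± 0.18 to -0.92 ± 0.25 (SD, n = 3 each), with an adjusted p of 0.012 in limma. The adjusted p was 0.0533 in the methods' t-test and 0.131 with slide row as a block, where the difference was -0.87, and it ran from 0.00365 to 0.131 over the alternatives.

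The downstream probe (mm9, plus strand, chr4:137126392-137126451), the brighter of the pair and the one by which the gene was counted, read 5.16, 5.21 and 5.57 in sham and 4.89, 4.71 and 4.998 after tail-suspension. The groups did not overlap here either. Its difference was -0.45 (SE 0.14, 95% interval -0.79 to -0.11), with an adjusted p of 0.067 in limma. So the call for Hspg2 depends on the probe, although both read lower in every suspended heart. The log2 ratio of the upstream over the downstream probe within an array was -5.13, -5.35 and -5.36 in sham and -5.73, -5.43 and -6.19 after tail-suspension. It was lower in all suspended hearts, by little in array 2, and was looked at after the values were seen, so it was given no test.

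Vcan was read by 3 probes on the minus strand of mm9. Probe 1 (chr13:89795080-89795139) read -1.22, -1.03 and -0.85 in sham and -1.10, -1.66 and -1.01 after tail-suspension, a difference of -0.23 (SE 0.20, 95% interval -0.69 to 0.24, adjusted p = 0.436 in limma). Probe 2 (chr13:89851810-89851869) read -2.25, -1.98 and -1.88 in sham and -1.94, -2.23 and -2.06 after tail-suspension, a difference of -0.04 (SE 0.13, 95% interval -0.35 to 0.28, adjusted p = 0.863 in limma). The groups overlapped at both. Probe 3 (chr13:89850072-89850131) was not well above background on any array, with intensities of 2.84 to 4.11. By its 2 measured probes, a change of versican RNA in either direction larger than those intervals was not seen, and smaller ones could not be told from 0.

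Pairs of members were then set against each other within each array, which cancels the scaling of the array. They were small members that are relatives or chromosomal neighbours, and the pair of large proteoglycans. Of 6 planned pairs, Fmod over Prelp gave no ratio that can be read, since Prelp was well above background on 1 of 6 arrays. Over the other 5, the exact permutation test (two-sided) gave p = 0.1, the smallest possible for 3 arrays against 3, for 3 pairs, and these were 0.167 after Benjamini-Hochberg adjustment (0.15 over the 6 planned), so no pair could pass. The log2 ratio of Dcn over Bgn was 7.27, 7.03 and 7.17 in sham and 7.72, 7.79 and 7.62 after tail-suspension, a mean difference of 0.55 with no overlap. That of Dcn over Lum was 4.70, 4.34 and 4.48 in sham and 5.17, 6.11 and 5.19 after tail-suspension, a mean difference of 0.98 that was 0.67 without tail-suspension array 2. The ratio of Ogn over Aspn was 5.93, 5.69 and 5.59 in sham and 5.28, 5.48 and 4.72 after tail-suspension. Its mean was 0.58 lower, with no overlap, and was 0.36 lower without tail-suspension array 3.

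For Fmod over Lum, where Fmod was well above background on 1 of 3 tail-suspension arrays, the difference was -0.36 (exact permutation p = 0.5, adjusted 0.5). Its sign turned to 0.08 under the other background correction and to 0.03 without tail-suspension array 3. Vcan over Hspg2 differed by 0.22 (exact permutation p = 0.2, adjusted 0.25), and by 0.57 when the tested probes of each gene were averaged. In each suspended heart the ratio of decorin RNA to that of its class I relative and of its chromosomal neighbour thus lay above the sham range.

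**Figure D3:**
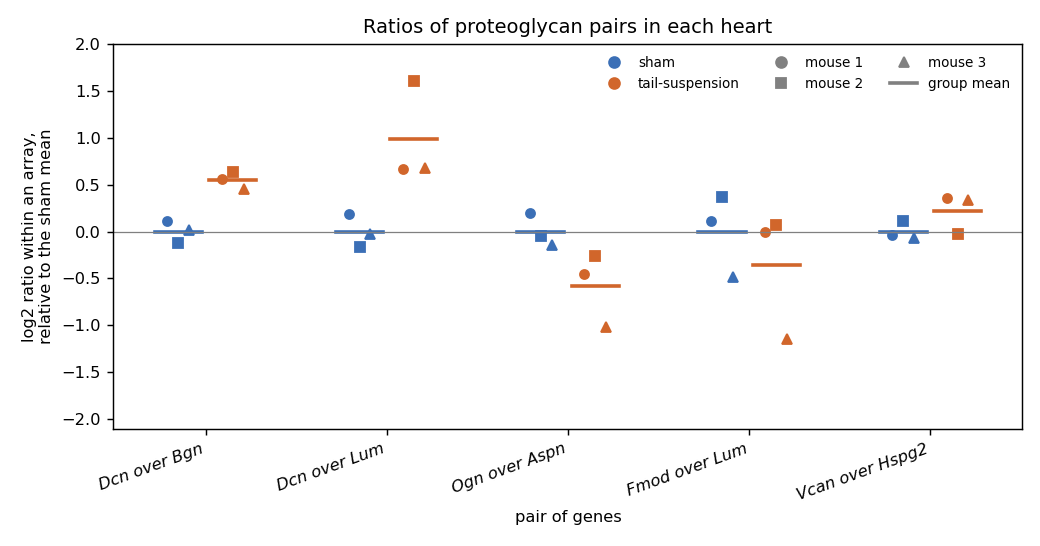
Each point is the log2 ratio of a pair of genes within 1 array, relative to the sham mean of that ratio, with bars at group means. The ratios Dcn over Bgn and Dcn over Lum lay higher, and Ogn over Aspn lower, in all 3 tail-suspension arrays, each with the smallest exact p that 3 against 3 allows (0.1).

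Most small leucine-rich genes lie in clusters on the chromosomes, and differences within a cluster had both signs. The cluster of chromosome 13 holds Ecm2, Aspn, Omd and Ogn, whose probes span 91.5 kb of mm9 on the plus strand. Ecm2, which encodes an extracellular matrix protein with leucine-rich repeats, gave intensities of 612, 693 and 551 in sham and 347, 491 and 379 after tail-suspension, with no overlap, and fell by 0.83 (SE 0.13) with an adjusted p of 0.0113 in limma. Omd, the gene of the bone keratan sulfate proteoglycan osteomodulin, gave 71.7, 51.0 and 42.9 in sham and 77.0, 88.7 and 100.1 after tail-suspension. All suspended hearts were higher for Omd, with a difference of 0.50 (SE 0.18, 95% interval 0.08 to 0.92) that did not pass (adjusted p = 0.0899, limma). So both outer genes of the cluster fell, the gene next to Ecm2 was at -0.37 and the gene next to Ogn read higher.

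In the cluster of chromosome 10, Dcn at 0.34 and Lum at -0.64 lay on opposite sides of 0, and their neighbours Kera and Epyc were not well above background on any array. On chromosome 1, Fmod was at -1.001, Prelp was measured above background on a single array, and their neighbour Optc was not well above background on any. Kera, Epyc and Optc encode proteoglycans of cornea, cartilage and eye.

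**Figure D4:**
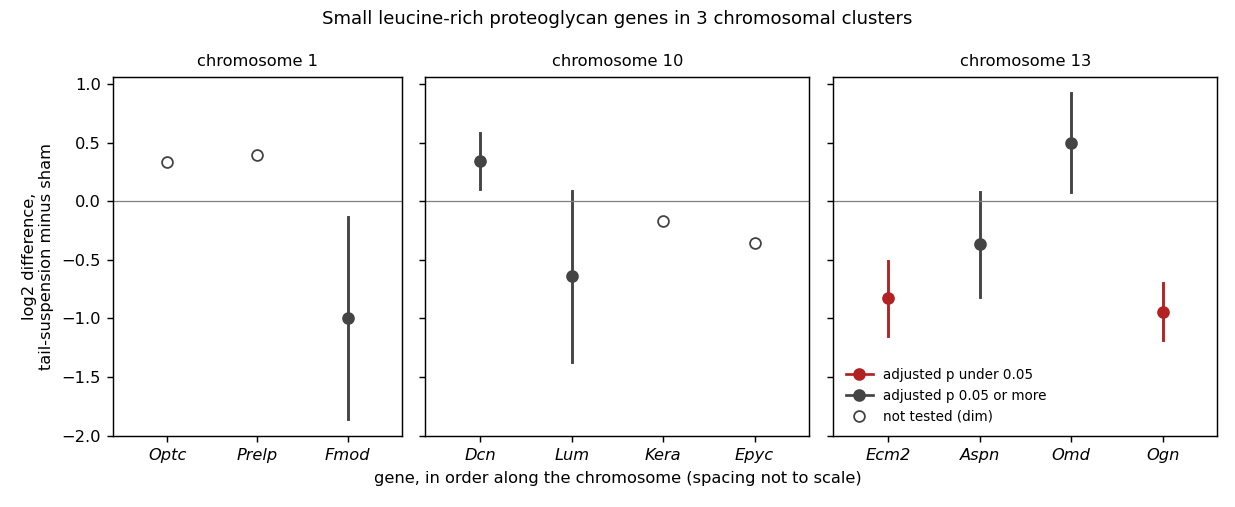
Log2 differences of tail-suspension minus sham, with 95% intervals where tested, for small leucine-rich genes in their order along chromosomes 1, 10 and 13 (spacing not to scale, open points not tested). Ecm2 at -0.83 and Ogn at -0.94, at the ends of the chromosome 13 cluster, passed, with Aspn at -0.37 and Omd at 0.50 between them.

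The SD was larger after tail-suspension for 9 of 11 tested member probes (81.8%), against 54.3% of all tested probes, and the median SD was 0.25 after tail-suspension and 0.18 in sham. Tail-suspension array 2 was the lowest of its group for 8 of 11 member probes and array 3 the highest for 7, against 37.1% and 27.2% of all tested probes. The same array was lowest for 11 of 13 tested collagen and elastic fibre genes and for 6 of 7 fibroblast markers, lists that share Col1a1, Col1a2 and Col3a1. Whether these hearts differ in their share of connective tissue was not tested.

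Fibroblasts make most of the small members, and their markers were set beside them. Of 7 fibroblast markers, Col3a1 (-1.88) and Thy1 (-0.93) were lower past the threshold and 0 were higher, with a median of -0.63. The summed linear level of the list, which is mostly Col1a2, Col3a1 and Col1a1, ran from 63.9 to 85.9 in sham and from 30.2 to 55.6 after tail-suspension. Of the markers that are not matrix genes, Thy1 fell without overlap (adjusted p = 0.00392, limma), whereas Pdgfra was at 0.19 (95% interval -0.17 to 0.55), Tcf21 at -0.03 (-0.35 to 0.28) and Ddr2 at -0.19 (-0.47 to 0.08), with groups that overlapped. Of 5 tested markers of activated fibroblasts, Fap fell by 1.02. Postn (-0.96), Ltbp2 (-0.78) and Comp (-0.05) did not pass, nor did Cilp, which read higher at 0.76, all with groups that overlapped. The median was -0.78, and summed levels ran from 5.36 to 6.43 in sham and from 3.17 to 4.56 after tail-suspension. Cthrc1 was not well above background on any array. Of 4 tested tendon and valve markers, Scx was higher by 1.21, and Sox9 (-0.10), Chad (-0.29) and Wif1 (0.02) did not pass. The list median was -0.04, its summed level, which is mostly Scx itself, ran from 5.39 to 6.92 in sham and from 10.9 to 16.8 after tail-suspension, and Hapln1 and Tnmd were not well above background on any array. In the endothelium, a main source of perlecan, 3 of 6 markers fell, which were Kdr (-0.55, at 1 of its 2 tested probes), Tie1 (-0.43) and Emcn (-0.50). Cdh5 (-0.29), Tek (-0.22) and Pecam1 (0.19) did not pass. Summed endothelial levels were 41.4 to 44.2 in sham and 30.5 to 34.4 after tail-suspension. Of 4 neutrophil genes 3 rose, among them S100a8 by 4.80 and S100a9 by 4.62, whereas Csf3r was at 0.30 (adjusted p = 0.0927, limma). The summed level, which is mostly Csf3r, was 143 to 171 in sham and 206 to 234 after tail-suspension. Of the other lists, 1 of 8 cardiomyocyte markers fell and 1 of 5 tested macrophage markers rose. Of 6 smooth muscle and pericyte markers, Kcnj8 fell by 0.56, and the other 5 did not pass, at 0.19 to 0.64. That list had a median of 0.29 and a summed level of 54.0 to 75.6 in sham and 67.5 to 93.0 after tail-suspension. Few markers of epicardium (1 of 5), atrium (2 of 5), adipocytes (1 of 5) and skeletal muscle (2 of 4) were tested, and none passed. These were Wt1 (0.35), Nppa (1.45), Myl4 (-0.63), Cfd (2.90), Acta1 (-0.90) and Tnnt3 (0.62), all with groups that overlapped. The summed cardiomyocyte level ran from 4273 to 4574 in sham and from 3986 to 4074 after tail-suspension. Myh6 was at -0.09 by its brightest probe, while its other tested probe passed at -1.47. The part of these cell types in the values of Ogn, Hspg2 or any other member was not tested.

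The other genes of the pathway were read in 9 lists, in which 17 genes rose and 19 fell of 114 tested, where 10.5% and 11% of all tested genes did so. Among 7 other tested small leucine-rich genes, Ecm2 fell as above and Nepn, which encodes nephrocan, fell by 0.86 (adjusted p = 0.0183, limma), and 0 rose. The list median was -0.24. Of 9 tested genes of the hyaluronan matrix, to which versican binds, 3 rose and 0 fell. Tnfaip6, whose product remodels hyaluronan in inflammation, was higher by 1.16 and the hyaluronidase Hyal1 by 0.53. The hyaluronan receptor Cd44 was higher by 0.49 at its brightest probe and by 1.06 at its other tested probe, which also passed. The median of that list was 0.31.

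Among 16 tested basement membrane and cell-surface proteoglycans, the companions of perlecan, 2 rose and 3 fell, with a median of -0.04. Spock2, the gene of testican-2, was higher by 2.26, and Tgfbr3, the gene of betaglycan, by 0.40. Col15a1, which encodes a basement membrane collagen that carries chondroitin sulfate, fell at both of its tested probes. It was well above background on 3 sham and 0 tail-suspension arrays by its brighter probe, which makes it at least 3.89-fold lower, taking the lowest signal well above background on each suspended array as the level there. Sdc1, a syndecan, fell by 0.45, and Srgn, the granule proteoglycan serglycin, by 0.44.

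The enzymes that build the sugar chains moved in both directions. Of 19 tested genes for the linker, chondroitin and dermatan sulfate, the sulfotransferase Chst3 (0.60) and the linker enzyme B3gat3 (0.42) rose and Chst7 (-0.75) and B3galt6 (-0.54) fell. Of 16 for heparan sulfate, the chain of perlecan, Hpse (1.25), which cleaves it, and Ndst2 (0.45), which sulfates it, rose, and the chain enzymes Extl1 (-1.01) and Extl3 (-0.42) fell. Of 5 for keratan sulfate, found on lumican and fibromodulin, B4galt4 (0.51) rose, Chst1 fell by 0.67, and Chst2 was at least 1.93-fold lower, measured above background in sham only. The medians of these lists were -0.10, 0.04 and -0.37.

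Of 12 tested proteases that cut matrix proteoglycans, Mmp3 (stromelysin-1) was higher by 2.04, Adamts9 fell by 1.26, Tll1 by 0.32, and Mmp13 was at least 2.07-fold lower, measured above background in sham only. The median was -0.19. Of 13 tested collagen and elastic fibre genes, which make the fibrils that the small members coat, Col3a1 (-1.88), Col6a2 (-1.25), Col6a1 (-0.80) and Tnxb (-0.41, named after its value was seen) fell and Eln, the elastin gene, rose by 0.50. The median was -0.63, beside the -0.37 of the 9 members. Of 17 growth factors and receptors that these proteoglycans bind, 5 rose and Kdr, a VEGF receptor that a perlecan fragment also binds, fell by 0.55 at 1 of its 2 tested probes. Igf1r was higher by 0.78, Tlr4 by 0.72 and Fgf2, well above background on 1 of 3 sham arrays, by 0.59 as measured. Tgfbr2 and P2rx4, named after their values were seen, were each higher by 0.49. Egfr, which decorin binds, did not pass by its brightest probe (0.39, adjusted p = 0.131 in limma), but its 2 other tested probes did, at 0.55 and 1.09. The list median was 0.08.

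**Figure D5:**
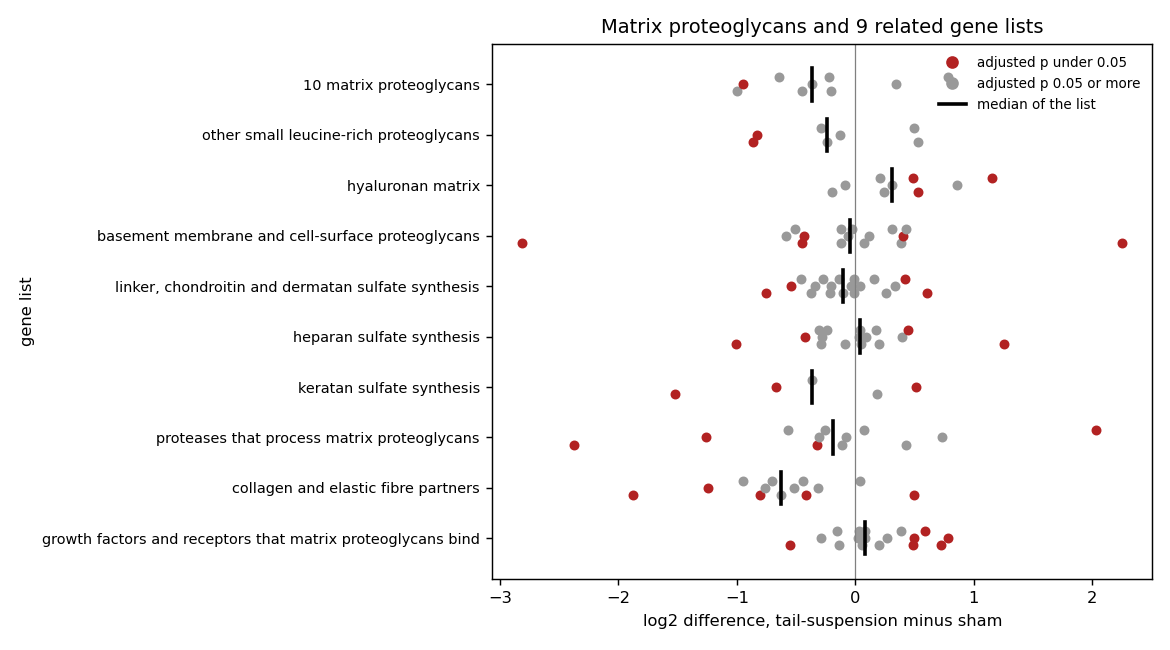
Log2 differences of tail-suspension minus sham for the 9 tested matrix proteoglycan genes and for the tested genes of 9 related lists, 1 point a gene by its brightest probe, red where the adjusted p in limma was under 0.05, with a black bar at each median. The medians ran from -0.63 for collagen and elastic fibre genes to 0.31 for the hyaluronan matrix, and 1 of the 9 members (Ogn) passed.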

How the data were processed

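Total RNA of 3 sham and 3 tail-suspended mouse hearts was measured on 6 1-colour Agilent arrays. The authors deposited scanner output from Agilent Feature Extraction (10.7.1.1 in the submitters' processing notes), which gives each spot an intensity before and after background correction, and a table of log2 values for these arrays. Each column of the deposited log2 table had a median of 4.33 and correlated above 0.999 with its array's own log2 intensity, so its scale is log2 and it was not centred by gene. It served as an alternative. The files hold no other record of normalization.

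From the processed intensity, log2 values minus each array's 75th percentile were computed in R 4.3.3, without control spots and spots with outlier flags (146 to 212 an array), and replicate spots were merged by their mean. Well above background means that the scanner's flag for it stood on 50% or more of a probe's spots. A probe was tested if this held on all 3 arrays of a group, in either group or both, by limma 3.58.1 (lmFit, eBayes, no covariate) with adjustment by Benjamini-Hochberg (threshold 0.05), apart from 28 probes with flagged spots only on an array, none of them a member. The tested probe of highest mean stood for a gene. A bound compares means of log2 values, with each dim array set to the higher of its lowest signal well above background and the probe's own. The number of arrays limits the precision. The design gives 3 mice a group, so p-values measure the spread between these mice. Replicate numbers did not pair the mice.

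Named are all members, of each list the genes past the threshold with the 3 largest differences in each direction, cluster neighbours, and markers set beside a result. The 4 promoter motifs and the comparison of both Hspg2 probes were added after values were seen, as were the names Tnxb, Tgfbr2, P2rx4 and Egfr. Members and lists were chosen with earlier results of these data known, so no list is independent support. Gene names and mm9 positions are those of the files, neighbours were checked in RefSeq (GRCm38.p6), and promoters were matched by symbol for 8 of the 10 members. Alternatives were normexp background correction (offset 50), quantile normalization, the deposited log2 table, other filters, the methods' t-test, array weights, a block for replicate number or for slide row, a 2-fold minimum, averaged probes, and each array left out. On simulated data for tail-suspension against sham over 28002 probes, 200 probes were changed, with noise drawn independently for each array. There, 66% of probes changed by 1 and 97% of those changed by 2 on the log2 scale were called, and 10 unchanged probes. In the real data 20.4% of tested probes passed, so these rates need not hold for these arrays.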

Additional observations from a re-analysis of the deposited data

How the results depend on the processing

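The fall of Ogn kept its direction under every alternative run, between -1.01 and -0.81, and its side of the threshold under all but slide row as a block (-0.81, adjusted p = 0.0557 in limma) and a 2-fold minimum, which its -0.94 misses. The upstream Hspg2 probe kept its direction too, and no longer passed in the methods' t-test (-0.95, adjusted p = 0.0533), with the row as a block (-0.87, adjusted p = 0.131) and under the 2-fold minimum. Dcn passed with normexp correction (0.41), the deposited log2 table (0.28) and array weights (0.38), and Podn with normexp (0.76) and array weights (0.99). Fmod passed with normexp (-0.49), but was well above background on only 1 of 3 tail-suspension arrays. Its pass without tail-suspension array 1 sets sham against background. Vcan probe 2 changed sign with array weights (0.021) and the row as a block (0.10). With each array left out, Dcn ran from 0.29 to 0.41, Fmod from -1.36 to -0.76, Podn from 0.60 to 1.08 and Vcan probe 2 from -0.14 to 0.042, with the sign turned at 0.042 without sham array 3 and at 0.041 without tail-suspension array 2. The ratio Fmod over Lum turned to 0.077 with normexp and ran from -0.60 to 0.035 with each array left out, positive without tail-suspension array 3. The causes were not tested.

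Of the 9 tested members, 2 were higher and 2 lower with normexp, 1 higher with the deposited table, 2 higher with array weights, 1 higher and 2 lower with probes averaged, and 0 lower with the row as a block or a 2-fold minimum. With each array left out, 0 to 2 were higher and 1 to 2 lower. Over all tested probes, 3021 were higher and 2682 lower. These were 1041 and 790 with no filter, 1533 and 1250 in the methods' t-test, 320 and 177 with the row as a block, 757 and 460 with a 2-fold minimum, and 4462 and 4352 with array weights. They ran from 965 to 2930 and from 726 to 2580 with each array left out, lowest without sham array 2. Of 28002 probes, 2475 were higher and 2634 lower with normexp, and 2763 higher and 3054 lower with the deposited log2 values. With probes averaged, no count over all genes is given here, so the member counts there have no share to be read against. The counts over all probes are by probe, whereas the members were counted by gene. In the 9 lists, 17 rose and 19 fell. These were 3 and 7 with no filter, 3 and 11 in the methods' t-test, 2 and 2 with the row as a block and 4 and 7 with a 2-fold minimum, and 2 to 16 and 7 to 17 with each array left out.

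Same-numbered mice share only a number, as their deviations from the group means correlated at -0.02, -0.02 and 0.05. With the replicate number as a block, the probes that passed were 1713 higher and 1403 lower, 8 list genes rose and 16 fell, Ogn kept an adjusted p of 0.0149 and the upstream Hspg2 probe 0.0445, and no member changed its call. All arrays lay on 1 slide, so a slide block was not run. Signal over background limits Fmod, Prelp and Vcan probe 3.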
